A study of Mus musculus with 26 samples.

Results

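The 10 genes described here serve autophagy and mitophagy: Bnip3l, Bnip3, Ulk1, Gabarapl1, Gabarapl2, Map1lc3b, Atg7, Atg5, Sqstm1 and Foxo3. They are 10 of 18378 genes named on the array and were taken with all of their probes, 15 of 41174. The array files give accessions in place of symbols, so each probe was assigned to its gene through the accession. All 15 probes were tested in every comparison and were well above background on all 26 arrays. A gene with several probes was represented by its lead probe, the one with the highest mean over all arrays, and the other probe is given beside it.

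The cells were EML, an established mouse line of blood progenitors that needs stem cell factor (SCF) and was grown, per the labels, with horse serum and SCF-conditioned medium in every group. In the first array set, 3 sorted fractions were measured on 3 arrays each: EryCP, CR Sca1lo and Sca1hi. In the second set, Ediff, the CD34-negative and cKit-negative cells obtained when EryCP cells differentiated under erythropoietin (Epo), had 3 arrays beside 3 from a further measurement of EryCP (EryCP repeat). In the third set, which the titles call EMLe2 without saying how it differs, CD34- CD103- cells after Epo (CD34- CD103- Epo) had 3 arrays, and CD34- CD103- and CD34+ CD103- cells had 4 each. No source used here gives the dose or duration of Epo. Nothing says that the arrays of a group came from separate cultures, so that p-values measure the spread between these samples, which may be technical. Groups were compared only within a set.

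Macroautophagy encloses cytoplasm in a double membrane that fuses with the lysosome. The ULK1 kinase starts the process, a ubiquitin-like conjugation system that includes ATG7 and ATG5 attaches proteins of the LC3 and GABARAP families to the growing membrane, and receptors link cargo to them. Mitophagy is its form for mitochondria, and maturing mouse red cells clear their mitochondria with the help of BNIP3L, also called NIX.

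The promoters of 4 members are shown: that of Bnip3, the member that fell in Ediff, and those of the 3 LC3 and GABARAP family members, which rose there. Bnip3l, which also rose there, had no entry in the table used. Each is the 250 bases upstream of the gene start in RefSeq's table for GRCm38.p6, read 5′ to 3′ on the gene's strand, with every ACGTG on either strand in capitals. ACGTG is the core of the hypoxia response element. Bnip3 lies at chr7:138909507-138909756 on the minus strand, Gabarapl1 at chr6:129532942-129533191, Gabarapl2 at chr8:111940453-111940702 and Map1lc3b at chr8:121590188-121590437, all 3 on the plus strand.
Bnip3: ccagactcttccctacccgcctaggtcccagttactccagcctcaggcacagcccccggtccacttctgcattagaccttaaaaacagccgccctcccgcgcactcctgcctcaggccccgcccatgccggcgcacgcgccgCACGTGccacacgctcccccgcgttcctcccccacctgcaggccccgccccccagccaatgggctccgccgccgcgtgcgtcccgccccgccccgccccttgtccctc
Gabarapl1: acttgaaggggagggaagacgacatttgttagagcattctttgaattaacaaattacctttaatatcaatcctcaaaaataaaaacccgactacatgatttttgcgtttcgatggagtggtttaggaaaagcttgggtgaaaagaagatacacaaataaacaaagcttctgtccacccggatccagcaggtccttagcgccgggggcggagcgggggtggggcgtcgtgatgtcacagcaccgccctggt
Gabarapl2: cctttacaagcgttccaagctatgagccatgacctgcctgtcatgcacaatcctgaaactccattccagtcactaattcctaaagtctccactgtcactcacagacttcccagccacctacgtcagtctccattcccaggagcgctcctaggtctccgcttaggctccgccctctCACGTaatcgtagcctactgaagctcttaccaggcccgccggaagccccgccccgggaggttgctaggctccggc
Map1lc3b: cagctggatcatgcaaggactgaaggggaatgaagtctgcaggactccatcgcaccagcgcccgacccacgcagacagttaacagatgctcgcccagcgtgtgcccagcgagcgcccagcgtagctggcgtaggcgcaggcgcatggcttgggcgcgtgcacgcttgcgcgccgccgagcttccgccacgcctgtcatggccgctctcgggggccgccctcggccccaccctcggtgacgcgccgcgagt
The 6 capitals of Bnip3 spell CACGTG, an E-box whose 2 strands each hold ACGTG and that starts 108 bases upstream. Gabarapl2 had 1 ACGTG, 75 bases upstream, and Gabarapl1 and Map1lc3b had 0. Of 32851 upstream windows of 250 bases, 16.6% held ACGTG and 6.02% held CACGTG. The motif of forkhead factors, GTAAACA, was in 3.17% of windows and on neither strand of the 9 members with a window. The same 9 lacked AGATAA, a motif of erythroid zinc finger factors that 9.99% of windows held. CACGTG was also in the windows of Atg7 and Atg5, and Ulk1, Sqstm1 and Foxo3 had 0 ACGTG. Among these, the Atg7 window (chr6:114670846-114671095) lies inside the gene as located below and not upstream of its start. The windows of Atg5 (chr10:44268089-44268338) and Ulk1 (chr5:110810082-110810331) also reach into the gene.

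A level here is the log2 processed signal minus the log2 75th percentile of the array, so that 0 marks the 75th percentile, and a difference is in log2 units. That percentile lay between 648.8 and 1034 intensity units in the first set, 425.3 and 704.2 in the second and 757.9 and 1247 in the third. From 76% to 93.8% of probes were well above background per array, and r across probes was 0.9677 to 0.9932 between arrays of the same group. Ly6a, which encodes Sca1, averaged -1.41 in CR Sca1lo and 4.15 in Sca1hi, while Cd34 averaged 5.05 in CD34- CD103- cells and 6.83 in CD34+ CD103- cells, so that its transcript was present in both. Slc4a1 and Alas2, genes of the red cell membrane and of haem synthesis, were higher in Ediff than in EryCP repeat by 9.74 and 7.15.

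Probes called across the genome at a Benjamini-Hochberg adjusted p under 0.05 (limma) set the background for these counts. In Ediff over EryCP repeat, where 57.4% of all probes were called (39.3% higher and 18.1% lower), 7 of 10 members rose and 1 fell. The median member differed by 0.6 and the median probe of the array by 0.41. In EryCP over Sca1hi, with 7.08% of probes called (3.43% higher and 3.65% lower), 2 members rose and 0 fell, with a median of 0.26 against -0.03 over all probes. EryCP over CR Sca1lo, with 5.51% called (2.95% higher and 2.56% lower), also gave 2 members higher and 0 lower (median 0.4, all probes -0.08). CR Sca1lo over Sca1hi, with 4.08% called (1.46% higher and 2.62% lower), gave 0 higher and 1 lower (median and all probes 0.04). In CD34- CD103- over CD34+ CD103- cells, with 13% called (5.93% higher and 7.08% lower), 3 members rose and 1 fell (median 0.1, all probes -0.06). CD34- CD103- Epo over CD34- CD103- cells, with 2.58% called (0.68% higher and 1.9% lower), gave 0 members in limma and 1, Gabarapl1, at an unadjusted p under 0.05. CD34- CD103- Epo over CD34+ CD103- cells, with 5.78% called (2.78% higher and 3% lower), gave 3 higher and 0 lower, and it shares its CD34+ CD103- arrays with CD34- CD103- over CD34+ CD103- and its Epo arrays with CD34- CD103- Epo over CD34- CD103-.

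Groups that do not overlap, every array of one above every array of the other, were more frequent than calls. Members without overlap numbered 9 of 10 in Ediff over EryCP repeat, where 63.9% of all probes had none. The numbers were 4 for CR Sca1lo over Sca1hi (20% of probes), 4 for EryCP over CR Sca1lo (19.7%), 2 for EryCP over Sca1hi (20.3%), 6 for CD34- CD103- over CD34+ CD103- (17.7%), 1 for CD34- CD103- Epo over CD34- CD103- (19%) and 6 for CD34- CD103- Epo over CD34+ CD103- (19.3%).

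**Figure D1:**
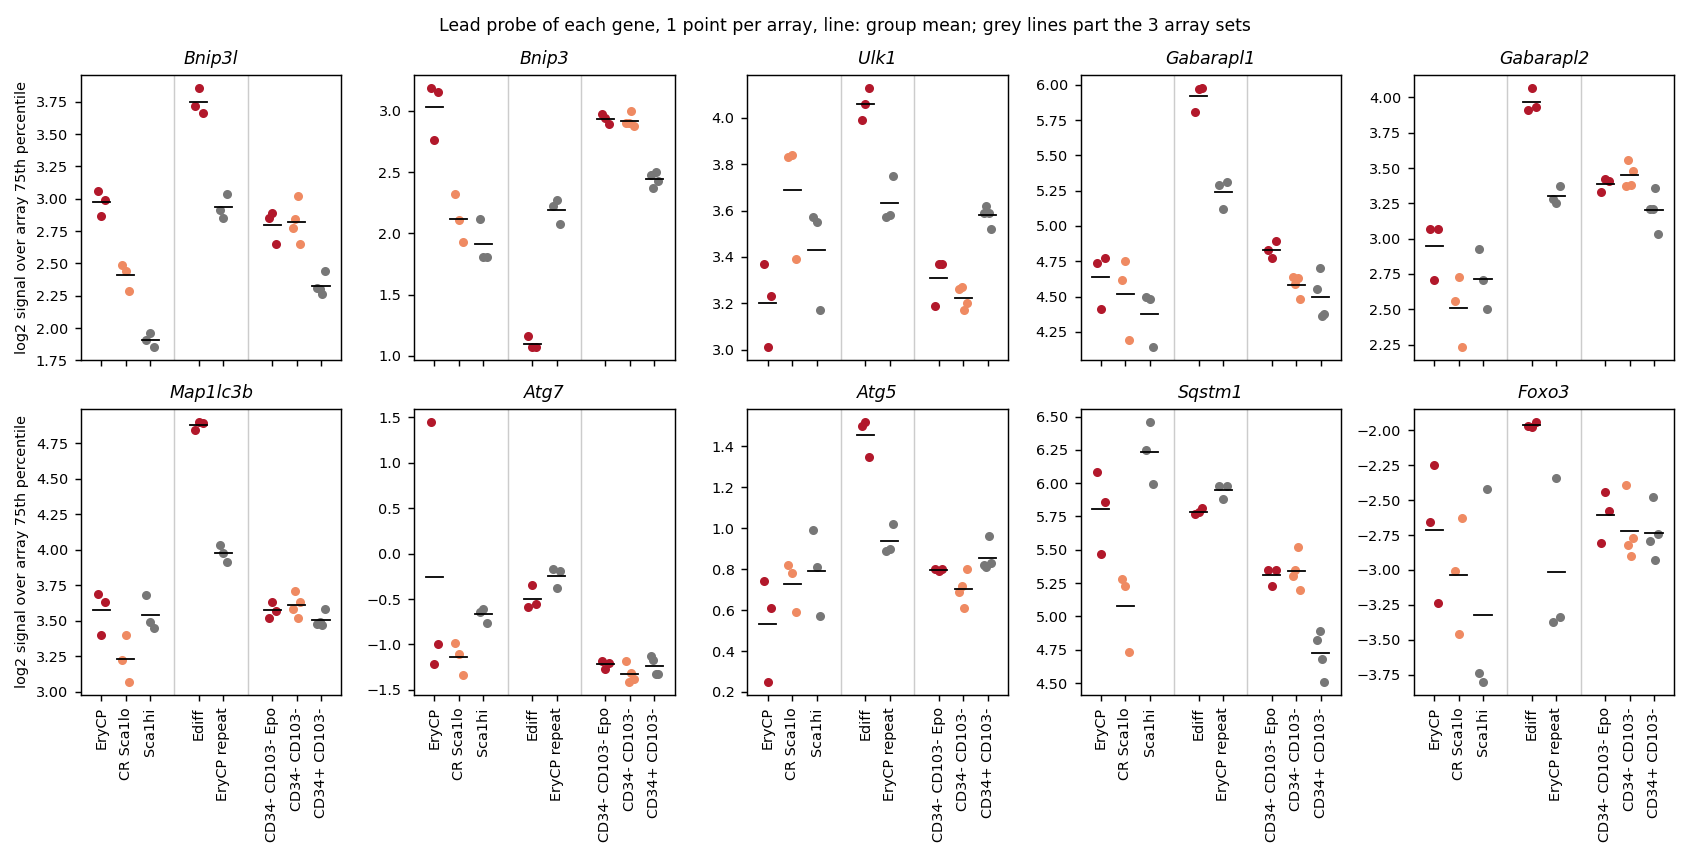
Levels of the 10 members (log2 processed signal minus the array's log2 75th percentile) in the 8 groups. Points are arrays, and bars are group means. Within the second set the 3 Ediff arrays lie above EryCP repeat for Bnip3l (3.66 to 3.86) and below it for Bnip3 (1.07 to 1.16).

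Bnip3l (chr14:66985238-67008877, GRCm38.p6) encodes a receptor in the outer mitochondrial membrane that binds LC3 and GABARAP proteins. Its level was 3.06, 2.87 and 2.99 in EryCP, 2.49, 2.44 and 2.29 in CR Sca1lo and 1.91, 1.96 and 1.85 in Sca1hi. The 3 groups of the first set lay in this order without overlap. The difference EryCP over Sca1hi was 1.07 (SE 0.13, limma adjusted p = 0.00163) and held in all 3 slides (1.02 to 1.1), and the second probe gave 1.21 (adjusted p = 0.0022). EryCP over CR Sca1lo was 0.57 (SE 0.13, adjusted p = 0.0414), but its adjusted p was 0.0614 to 0.162 when any one of the 6 arrays was left out. CR Sca1lo over Sca1hi was 0.50 (SE 0.13, adjusted p = 0.0793), which did not pass, and was 0.00349 with slide as a block.

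Bnip3l rose after Epo in EryCP cells, except under spike-in scaling (-0.13). Its levels were 3.72, 3.86 and 3.66 in Ediff and 2.91, 2.85 and 3.04 in EryCP repeat, 0.82 higher (SE 0.10, adjusted p = 0.00108; second probe 0.88). In the third set, CD34- CD103- Epo cells had 2.85, 2.89 and 2.65, CD34- CD103- cells 2.77, 2.84, 3.02 and 2.65, and CD34+ CD103- cells 2.31, 2.30, 2.26 and 2.44. CD34- CD103- cells lay above CD34+ CD103- cells on all arrays, by 0.49 (SE 0.09, adjusted p = 0.00616; 0.45 to 0.65 within 3 slides), although the second probe did not pass (0.34, adjusted p = 0.0902). CD34- CD103- Epo and CD34- CD103- cells overlapped, with a difference of -0.02 (SE 0.10, adjusted p = 0.93). The order of the means within sets was therefore Ediff over EryCP repeat, EryCP over CR Sca1lo over Sca1hi, and CD34- CD103- and CD34- CD103- Epo, which overlapped, over CD34+ CD103-.

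Bnip3 (chr7:138890836-138909506, GRCm38.p6) encodes the related receptor, a known target of the hypoxia-inducible factor. In EryCP it was 3.19, 2.76 and 3.15, against 2.32, 2.11 and 1.93 in CR Sca1lo and 2.12, 1.81 and 1.81 in Sca1hi. EryCP stood above both other groups, while CR Sca1lo and Sca1hi overlapped (0.2, adjusted p = 0.886). The difference was 1.12 over Sca1hi (SE 0.18, adjusted p = 0.0079; 0.94 to 1.37 within slides) and 0.91 over CR Sca1lo (SE 0.18, adjusted p = 0.0237). The comparison with CR Sca1lo kept its call only without EryCP replicate 2 (adjusted p = 0.021) and ranged up to 0.108 when other arrays were left out.

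Bnip3 and Bnip3l parted after Epo. Bnip3 was 1.16, 1.07 and 1.07 in Ediff and 2.22, 2.27 and 2.08 in EryCP repeat, 1.09 lower (SE 0.09, limma adjusted p = 0.000217), which is 0.469 of the EryCP repeat signal. It was lower in both slides (-1.16 to -1.08) and under all 6 scalings, including spike-in scaling (-2.03), under which the median of all probes was -0.53, though with normexp the adjusted p was 0.441. Among the EMLe2 cells it was 2.97, 2.94 and 2.89 in CD34- CD103- Epo cells, 2.90, 2.90, 3.00 and 2.88 in CD34- CD103- cells and 2.48, 2.37, 2.50 and 2.43 in CD34+ CD103- cells. The first 2 groups overlapped (0.02, adjusted p = 0.927), and both lay above CD34+ CD103- cells on all arrays, CD34- CD103- by 0.47 (SE 0.06, adjusted p = 0.000654). Under spike-in scaling, by which the median of all probes in this comparison fell to -0.27, the differences of Bnip3l, Bnip3 and Sqstm1 over CD34+ CD103- cells were 0.28, 0.26 and 0.41 and did not pass.

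Ulk1 (chr5:110784489-110810120, GRCm38.p6) encodes the kinase that starts autophagosome formation. In the first set its level was 3.37, 3.01 and 3.23 in EryCP, 3.83, 3.84 and 3.39 in CR Sca1lo and 3.57, 3.55 and 3.17 in Sca1hi. EryCP lay below CR Sca1lo without overlap, and Sca1hi overlapped both. EryCP over CR Sca1lo was -0.48 (SE 0.19, adjusted p = 0.259), and with slide as a block its adjusted p was 0.00521. In Ediff it was 3.99, 4.06 and 4.13, against 3.57, 3.58 and 3.75 in EryCP repeat. That is 0.43 higher (SE 0.10, adjusted p = 0.0114), close to the median probe of that comparison (0.41), and the adjusted p was 0.0543 without EryCP repeat replicate 1. The second probe gave 0.29 (adjusted p = 0.0768), spike-in scaling turned the sign (-0.51), and the call was lost with quantile normalization (0.15, adjusted p = 0.201) and median centring (0.25, adjusted p = 0.235). The EMLe2 groups had Ulk1 at 3.19, 3.37 and 3.37 in CD34- CD103- Epo cells, 3.26, 3.27, 3.17 and 3.20 in CD34- CD103- cells and 3.59, 3.62, 3.59 and 3.52 in CD34+ CD103- cells. It was the member that fell in CD34- CD103- cells, by 0.35 (SE 0.07, adjusted p = 0.00611), with both probes called and 8 of 8 left-out arrays leaving the call.

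Gabarapl1 (chr6:129533192-129542331), Gabarapl2 (chr8:111940703-111952915) and Map1lc3b (chr8:121590438-121598760) encode proteins of the family that is conjugated to autophagosome membranes. Map1lc3b was 4.84, 4.90 and 4.89 in Ediff and 4.03, 3.98 and 3.91 in EryCP repeat, 0.90 higher (SE 0.08, adjusted p = 0.000319), and its second probe was 1.66 higher. For Gabarapl1 the Ediff arrays had 5.81, 5.97 and 5.98 and the EryCP repeat arrays 5.29, 5.12 and 5.31, 0.68 higher (SE 0.10, adjusted p = 0.00227; second probe 1.16). Gabarapl2 was 3.91, 4.07 and 3.93 in Ediff and 3.28, 3.25 and 3.37 in EryCP repeat, 0.67 higher (SE 0.09, adjusted p = 0.00164). Its 2 probes disagreed (the second gave -0.03), but the second was much dimmer, at -3.15 in Ediff and -3.12 in EryCP repeat. Both are named through an older design of the array, since the newer one gives them other accessions. Under spike-in scaling all 3 turned negative (Map1lc3b -0.04, Gabarapl1 -0.26, Gabarapl2 -0.27), so that their direction depends on the scale. Relative to the median of all probes, Map1lc3b was 0.49, Gabarapl1 0.27 and Gabarapl2 0.26.

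In the fit used for the counts above, none of the 3 genes was called in another comparison of 2 groups. Of 10 alternative settings, slide as a block among them, 4 called Gabarapl2 and 3 called Map1lc3b in EryCP over CR Sca1lo. Gabarapl2 was called under 3 in CD34- CD103- over CD34+ CD103- cells. For Gabarapl1, 2 gave a call in CD34- CD103- Epo over CD34+ CD103- cells. In the first set, Map1lc3b averaged 3.57 ± 0.15 in EryCP, 3.23 ± 0.17 in CR Sca1lo and 3.54 ± 0.12 in Sca1hi (SD, n = 3 each), and with slide as a block CR Sca1lo over Sca1hi was -0.31 (adjusted p = 0.0396; without block 0.439). The block also brought EryCP over CR Sca1lo past the threshold for Gabarapl2 (0.45, adjusted p = 0.00747; without block 0.32) and Map1lc3b (0.34, adjusted p = 0.0254; without block 0.334), and EryCP over Sca1hi for Gabarapl1 (0.27, adjusted p = 0.0402; without block 0.747). Gabarapl1 averaged 4.64 ± 0.2 in EryCP, 4.52 ± 0.29 in CR Sca1lo and 4.37 ± 0.2 in Sca1hi, and Gabarapl2 2.95 ± 0.21, 2.51 ± 0.26 and 2.71 ± 0.21 in the same order of groups. Among the EMLe2 cells, Gabarapl1 was 4.83, 4.77 and 4.89 in CD34- CD103- Epo cells and 4.64, 4.59, 4.63 and 4.48 in CD34- CD103- cells, without overlap (0.25, SE 0.10, adjusted p = 0.23), and CD34+ CD103- cells had 4.55, 4.7, 4.36 and 4.38. Gabarapl2 averaged 3.39 ± 0.04 (n = 3) in CD34- CD103- Epo, 3.45 ± 0.09 (n = 4) in CD34- CD103- and 3.2 ± 0.14 (n = 4) in CD34+ CD103- cells, and Map1lc3b 3.57 ± 0.06, 3.61 ± 0.08 and 3.51 ± 0.05.

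Atg7 (chr6:114643127-114860604) and Atg5 (chr10:44268322-44364299) encode the E1-like enzyme and a conjugation partner of the LC3 lipidation system. Atg5 was 1.5, 1.52 and 1.35 in Ediff and 0.89, 0.90 and 1.02 in EryCP repeat, 0.52 higher (SE 0.09, adjusted p = 0.00498), near the median probe, -0.42 under spike-in scaling and not past the threshold with median centring (0.34, adjusted p = 0.123). Its level was 0.74, 0.25 and 0.61 in EryCP, 0.82, 0.78 and 0.59 in CR Sca1lo and 0.99, 0.81 and 0.57 in Sca1hi, overlapping throughout. Among the EMLe2 cells it was 0.80, 0.79 and 0.80 in CD34- CD103- Epo, 0.69, 0.72, 0.61 and 0.80 in CD34- CD103- and 0.82, 0.81, 0.96 and 0.83 in CD34+ CD103- cells, with no call, though CD34- CD103- over CD34+ CD103- was -0.19 with slide as a block (adjusted p = 0.0381; without block -0.15, 0.207). Atg7 did not pass in any comparison of 2 groups in the fit used for the counts, though 2 of 10 alternative settings called it lower in Ediff. EryCP replicate 1 read 1.45 against -1.21 and -1 on the other EryCP arrays, while CR Sca1lo was -0.98, -1.11 and -1.34 and Sca1hi -0.64, -0.61 and -0.76. Without that array EryCP over Sca1hi was -0.44, against 0.42 with it. In Ediff it was -0.59, -0.34 and -0.56, against -0.17, -0.38 and -0.19 in EryCP repeat (-0.25, SE 0.11, adjusted p = 0.101). In CD34- CD103- Epo cells it was -1.18, -1.27 and -1.20, in CD34- CD103- cells -1.18, -1.41, -1.31 and -1.38 and in CD34+ CD103- cells -1.13, -1.17, -1.32 and -1.32.

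Sqstm1 (chr11:50200152-50210820, GRCm38.p6) encodes p62, the cargo receptor that binds ubiquitin and is itself degraded by autophagy. Its level was 6.08, 5.47 and 5.86 in EryCP, 5.28, 5.23 and 4.73 in CR Sca1lo and 6.25, 6.46 and 5.99 in Sca1hi, so that CR Sca1lo lay below both others. CR Sca1lo over Sca1hi was -1.15 (SE 0.23, adjusted p = 0.0303; -1.26 to -1.02 within 3 slides), a signal 0.449 of that in Sca1hi. That call held without Sca1hi replicate 3 only (adjusted p = 0.0488) and was lost without any other of the 6 arrays (up to 0.15). EryCP over CR Sca1lo was 0.72 (adjusted p = 0.138, and 0.00128 with slide as a block), and EryCP over Sca1hi was -0.43 (adjusted p = 0.466, and 0.00862 with the block).

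After Epo, Sqstm1 was 5.77, 5.78 and 5.81 in Ediff and 5.98, 5.88 and 5.98 in EryCP repeat, a difference of -0.16 (SE 0.08, adjusted p = 0.137) that did not pass although the groups did not overlap. Against the median probe of that comparison it was -0.57. In the third set Sqstm1 was 5.35, 5.23 and 5.35 in CD34- CD103- Epo cells, 5.30, 5.35, 5.52 and 5.20 in CD34- CD103- cells and 4.82, 4.89, 4.68 and 4.51 in CD34+ CD103- cells. CD34- CD103- cells exceeded CD34+ CD103- cells by 0.62 (SE 0.10, adjusted p = 0.00218; 0.49 to 0.82 within slides), and the groups with and without Epo overlapped (-0.03, adjusted p = 0.908).

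Foxo3 (chr10:42181845-42276695, GRCm38.p6) encodes a transcription factor that drives autophagy genes in several tissues. Its processed signals were 48.1 to 209 intensity units. It was -1.97, -1.98 and -1.94 in Ediff and -3.37, -2.34 and -3.34 in EryCP repeat, 1.05 higher (SE 0.29, adjusted p = 0.022). Without Ediff replicate 1 or 3 or EryCP repeat replicate 1 or 3 the adjusted p was 0.0618, 0.0659, 0.073 and 0.0726, and the call was also lost under spike-in scaling (0.11, adjusted p = 0.814), in the deposited values (0.45, adjusted p = 0.0641) and with normexp (0.58, adjusted p = 0.807). In the first set it was -2.66, -2.25 and -3.24 in EryCP, -3.01, -3.46 and -2.63 in CR Sca1lo and -3.74, -3.80 and -2.42 in Sca1hi, with no call. Among the EMLe2 cells it averaged -2.61 ± 0.18 in CD34- CD103- Epo (n = 3), -2.72 ± 0.23 in CD34- CD103- and -2.73 ± 0.19 in CD34+ CD103- cells (SD, n = 4 each).

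**Figure D2:**
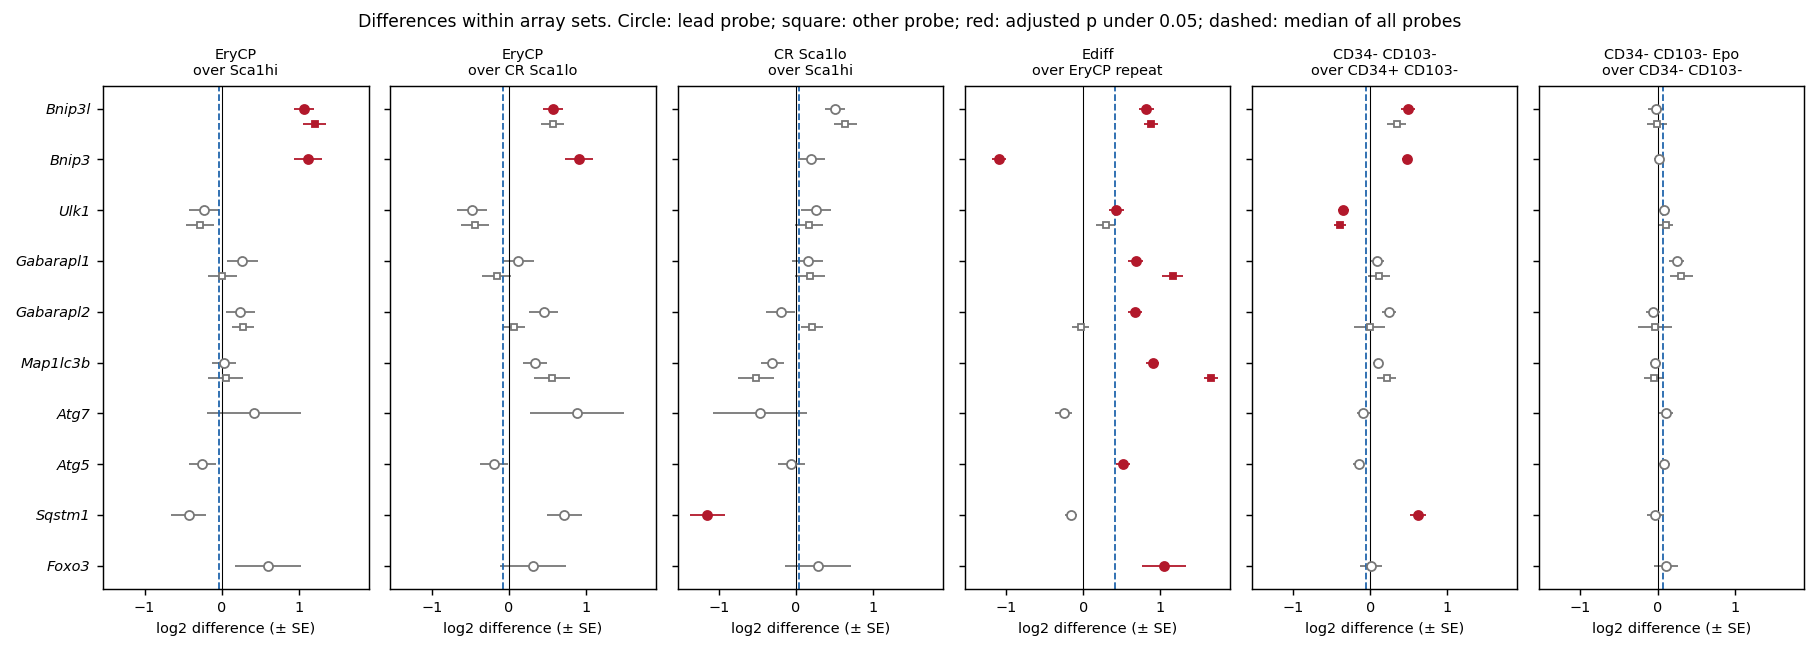
Differences in log2 units (± SE) of the members in 6 comparisons. Circles are lead probes, squares the other probe, red marks an adjusted p under 0.05, and the dashed line is the median of all probes. In Ediff over EryCP repeat the dashed line lies at 0.41, and Bnip3 at -1.09 is the only red point below 0.

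The 15 differences of Ediff over EryCP repeat have to be read against a shift of the whole array. Scaling to the spike-in probes moved the median of all probes to -0.53, quantile normalization to 0.16, median centring to 0.23 and the deposited values to 0.08. Relative to its own median, under the 75th percentile scale, Bnip3l was 0.41, Map1lc3b 0.49 and Foxo3 0.64, whereas Bnip3 was -1.5, Atg7 -0.66 and Sqstm1 -0.57. Ulk1 (0.02) and Atg5 (0.11) lay near it. With median centring no member passed in the first set (adjusted p = 0.0546 for Bnip3l and 0.0961 for Bnip3 in EryCP over Sca1hi). With normexp background correction on the median signals no member passed in Ediff over EryCP repeat or in the first set, and the count over all probes was 244.

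**Figure D3:**
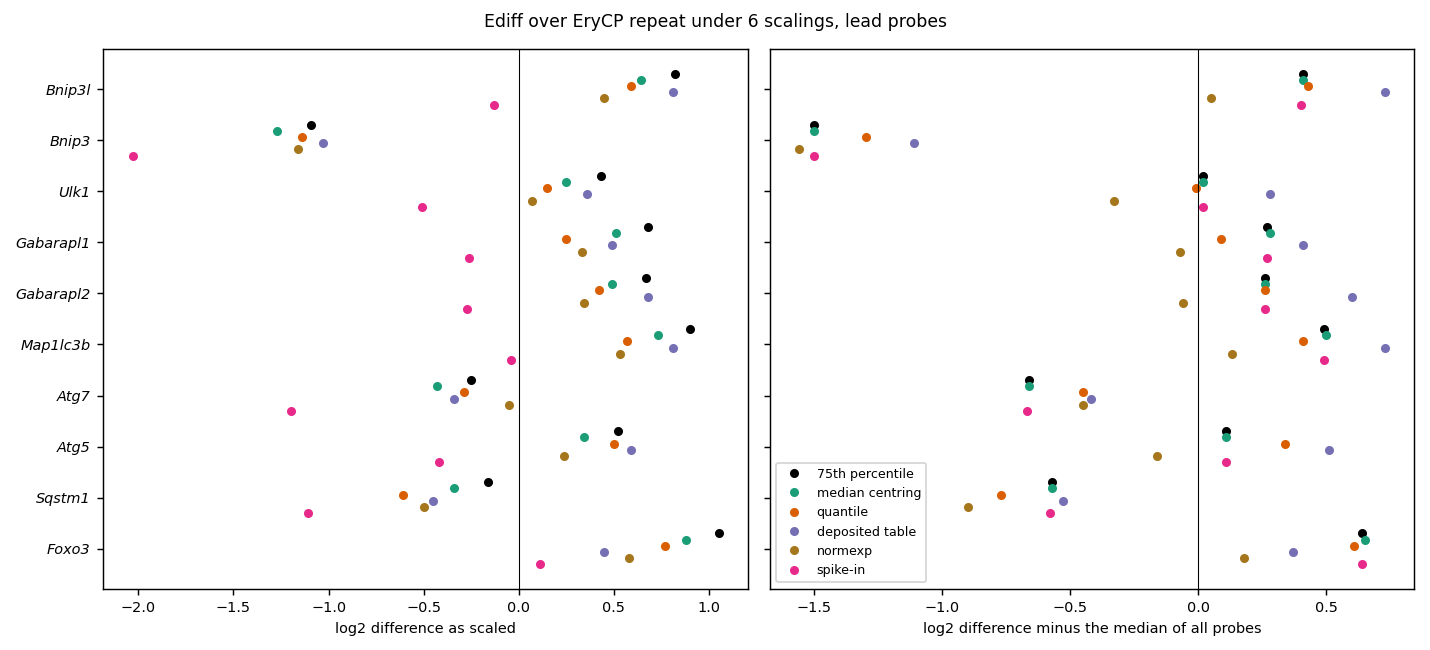
Lead-probe differences of Ediff over EryCP repeat under 6 scalings, as scaled (left) and minus the median of all probes (right), both in log2 units. On the left Bnip3 stays below 0 under each, and spike-in scaling takes Bnip3l (-0.13), Ulk1 (-0.51) and Atg5 (-0.42) below 0.

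The other genes of the pathway came from 13 lists, of which 105 genes were named on the array. In Ediff over EryCP repeat 50 of 104 tested rose and 27 fell, where 39.3% of all probes were called higher and 18.1% lower. The median was 0.26 against 0.41 for all probes. Under spike-in scaling 9 rose and 64 fell, where 52.8% of all probes were called and 8.21% of those calls were higher. All but 13 of the 44 genes named by the rule kept their sign under spike-in scaling. Among membrane-growth genes, Wipi2 rose by 1.91 (adjusted p = 4.03e-05) and Wipi1 by 1.68, and both Atg4a (1.76) and Atg4b (1.7), proteases that process LC3 proteins, rose. Both other family members tested, Gabarap (0.93) and Map1lc3a (0.69), rose on this scale and were -0.01 and -0.26 under spike-in scaling. Ulk2, a kinase related to ULK1, fell by 1.38, and it was the only one of the 4 ULK1 complex genes called.

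Several lysosomal genes rose in Ediff, and receptor genes moved both ways. Lamp1, a lysosomal membrane protein, rose by 2.7 (adjusted p = 2.95e-05), Ctsb, a lysosomal protease, by 2.7 and Ctsd by 1.26. Of the 12 genes tested in that list 6 rose and 1 fell (median 0.59, all probes 0.41), and under spike-in scaling 2 rose and 6 fell. The background for the list counts is 39.3% of all probes higher and 18.1% lower. The cargo receptor Optn rose by 1.13, whereas Tax1bp1 fell by 1.22 and Ncoa4, the ferritin receptor, by 1.13. Among other mitophagy genes Bcl2l13 rose by 1.45 and Fundc1 fell by 0.71. Mitf (-3.16) and Foxo1 (-2.11) fell among the regulators. Of the mitochondrial import and matrix genes 10 of 14 rose and 2 fell, with a median of 0.49, near the 0.41 of all probes. Their direction depends on the scale: 0 rose and 9 fell under spike-in scaling, and 2 rose and 2 fell with median centring.

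Bnip3 was not alone among hypoxia targets in Ediff: Ndrg1 fell by 6.37 (adjusted p = 1.69e-06) and Egln3 by 5.87. Vegfa rose by 3.01 and Slc2a1 by 1.3. Of the 9 hypoxia targets 4 rose and 5 fell (median -0.42), where 39.3% of all probes were higher and 18.1% lower. The 9 FOXO3 targets split 4 to 5, with Gadd45a higher by 2.27 and Pik3ip1 lower by 4.12 (median -0.33). Mast cell markers fell on 6 of 6 genes, and their summed level was 4.64 to 5.86 in Ediff and 477 to 539 in EryCP repeat, while 7 of 7 erythroid markers rose (738 to 760 in Ediff, 28.9 to 39 in EryCP repeat). The mast cell genes include Kit (1.31 in Ediff, 4.62 in EryCP repeat), which encodes cKit. Ediff cells were taken as cKit-negative, so its fall is no separate evidence. The part of these markers in the differences of the members was not tested. These are bulk samples, in which fewer cells of a type and less RNA per cell cannot be told apart.

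**Figure D4:**
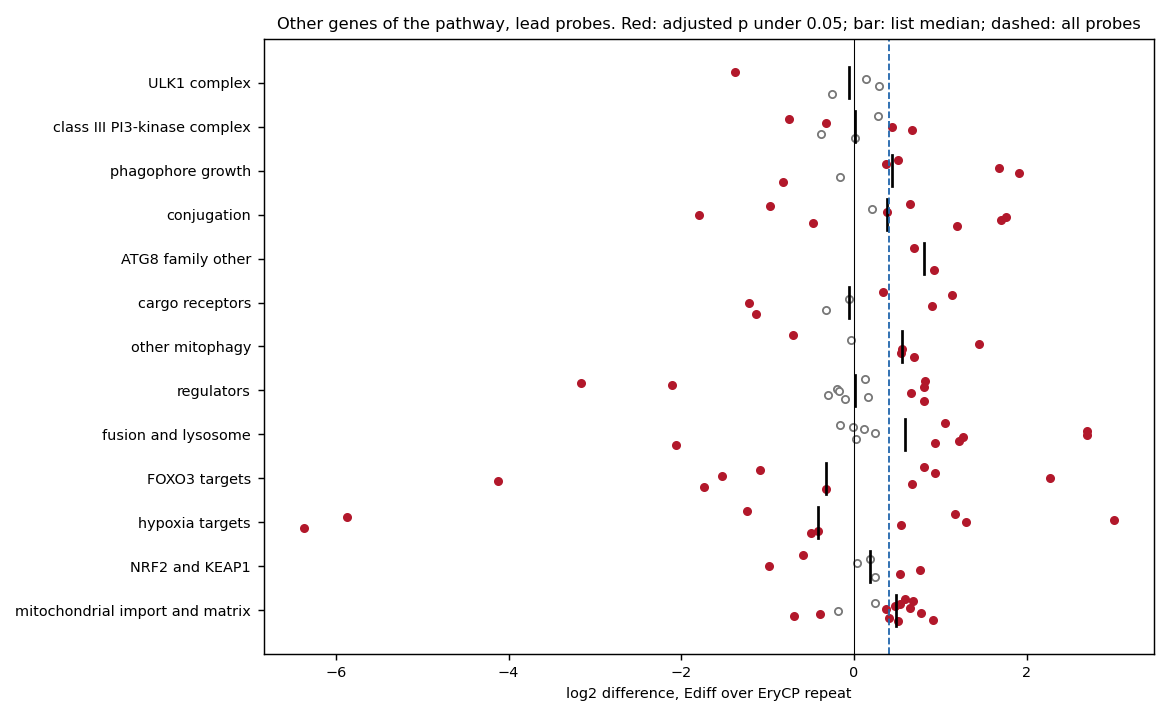
Lead-probe differences of Ediff over EryCP repeat (log2) for the other pathway genes, by list. Red marks an adjusted p under 0.05, bars are list medians, and the dashed line is the median of all probes at 0.41. Ndrg1 (-6.37) and Egln3 (-5.87) are the lowest of the hypoxia targets and Vegfa (3.01) the highest.

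In the first set, CR Sca1lo over Sca1hi had 0 of 104 pathway genes higher and 13 lower, where 4.08% of all probes were called. EryCP over CR Sca1lo had 12 higher and 2 lower (5.51% of all probes), and EryCP over Sca1hi had 9 higher and 7 lower (7.08%). Genes that fell in CR Sca1lo were Ctsd (-1.84, adjusted p = 0.00127), Ndrg1 (-1.62), Ero1a (-1.55), Hmox1 (-1.47) and Gabarap (-0.69, adjusted p = 0.0487). Ero1a (2.49, adjusted p = 3.93e-05), Ndrg1 (2.2), Mitf (1.66) and Optn (1.29) rose in EryCP over CR Sca1lo. Over Sca1hi, EryCP had Mitf higher by 1.71 and Lamp1 lower (-1.44). Erythroid markers were higher in EryCP on 6 of 7 genes in both comparisons, and mast cell markers on 4 of 6 with 0 lower. The summed level of mast cell markers, highest in Cpa3 and Gzmb, was 524 to 663 in EryCP, 294 to 391 in CR Sca1lo and 271 to 398 in Sca1hi. Summed neutrophil and macrophage markers were 46.6 to 78.9, 303 to 448 and 234 to 321 in that order. Of these 5 genes 1 was called higher and 2 lower in EryCP in both comparisons. The part of these markers in the members' differences was not tested.

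In CD34- CD103- over CD34+ CD103- cells 21 of 105 pathway genes rose and 9 fell, where 13% of all probes were called. Among those that rose were Ndrg1 by 1.79 (adjusted p = 3.99e-08), Ero1a by 1.43, Optn by 1.25 and Mitf by 0.93, and Map1lc3a rose by 0.59. Ndrg1, Ero1a, Optn and Mitf had been called higher in EryCP over CR Sca1lo too. Summed mast cell markers were 551 to 569 in CD34- CD103- cells and 454 to 466 in CD34+ CD103- cells, and neutrophil and macrophage markers 175 to 204 and 367 to 459. The latter sum mostly follows Mpo, the highest of its 5 genes, which averaged 7.42 and 8.7. By gene, 2 of the 5 were called higher in CD34- CD103- cells and 1 lower. S100a8 averaged 2.52 there against -1.67 and Lyz2 2.72 against 1.22. Of the 6 mast cell genes 4 were called higher in CD34- CD103- cells and 0 lower. Hdc, the mast cell and basophil histidine decarboxylase, was 7.07 higher in CD34- CD103- cells. Their part in the members' differences was not tested.

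In CD34- CD103- Epo over CD34- CD103- cells 4 of 105 pathway genes rose and 5 fell, where 0.68% of all probes were higher and 1.9% lower. Ndrg1 fell by 1.05 (adjusted p = 1.08e-05), Map1lc3a by 0.55 and Optn by 0.49, and Hmox1 rose by 0.7 (adjusted p = 0.0262) and Txnrd1 by 0.68. Gata1 fell by 0.68 (adjusted p = 0.0269), and 0 of 7 erythroid markers rose, whereas 7 of 7 had risen in Ediff. CD34- CD103- Epo over CD34+ CD103- cells had Bnip3l at 0.47 (adjusted p = 0.0234), Bnip3 at 0.49 (adjusted p = 0.00242) and Sqstm1 at 0.59 (adjusted p = 0.0104) as its called members. The Bnip3l call was lost without CD34+ CD103- replicate 1, 2 or 3 (0.0618, 0.0501 and 0.0566) and without CD34- CD103- Epo replicate 1 or 2 (0.112 and 0.106). The Sqstm1 call was lost without CD34- CD103- Epo replicate 1 or 3 (0.0585 and 0.0507). Under spike-in scaling, with a median of all probes of -0.41, they were 0.04, 0.06 and 0.16.

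The 2 Epo comparisons were set against each other as a difference of differences within their own sets. Of 10 members 9 differed, 7 higher and 2 lower in the response of EryCP cells, where 43.2% of all probes differed, 26.1% higher and 17.1% lower (all-probe median 0.31, member median 0.44). Bnip3 differed by -1.11 (SE 0.10, adjusted p = 2.54e-07), Map1lc3b by 0.94 (SE 0.10, adjusted p = 1.53e-06), Bnip3l by 0.84 (SE 0.14, adjusted p = 0.000195) and Gabarapl2 by 0.73. Ulk1 lost its call without CD34- CD103- Epo replicate 1 (adjusted p = 0.0535), and Atg7 (-0.36, adjusted p = 0.0372) lost its call with slide as a block (-0.2, adjusted p = 0.0584). Sqstm1 was the member that did not pass (-0.13, adjusted p = 0.454). Under spike-in scaling 3 were called, all lower (Bnip3, Atg7 and Sqstm1), and Bnip3l was 0.11 and Map1lc3b 0.21. The sets were read with different scanner software versions, whose effect on the size of differences cannot be told apart from the cells. The comparisons also differ in more than Epo. Ediff was taken as CD34-negative and cKit-negative cells from differentiating EryCP, while the third set holds EMLe2 cells. Dose and duration of Epo are given for neither. A differing response to Epo cannot be told apart from these features.

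**Figure D5:**
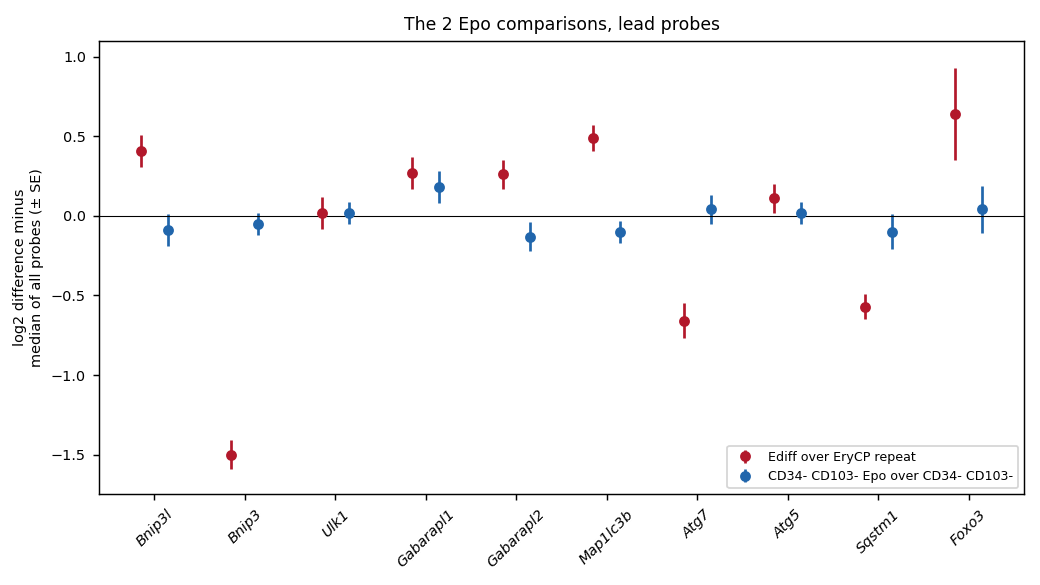
Log2 differences (± SE) of the members minus the median of all probes in Ediff over EryCP repeat (red) and CD34- CD103- Epo over CD34- CD103- (blue). Bnip3 lies at -1.5 in red, and the blue points lie between -0.13 and 0.18.

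Across the 8 group means, each centred on the mean of its array set, the genes with the pattern most like that of Bnip3l among 14621 candidates were P2ry1 (Pearson r = 0.9941), Pi4k2b (0.9935), Cenpu (0.993), Selenoo (0.9928) and Garem1 (0.9919). P2ry1 differed by 1.83 in EryCP over Sca1hi and 1.66 in Ediff over EryCP repeat. With only 8 means, which centring within 3 sets ties to each other, these values are a description. Among the members, Gabarapl2 and Map1lc3b had the highest r (0.94) and Bnip3 and Atg5 the lowest (-0.92).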

How the data were processed

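Total RNA of 26 samples in 8 groups was hybridised to single-colour Agilent arrays, grouped by title. Per the file headers, spots were read by Agilent Feature Extraction 10.1.1.1 (first and second sets) and 10.7.1.1 (last set). The deposited scanner files hold spot intensity on a linear scale, with marks for background and uneven spots. The deposited value table holds log2 values of unstated centring, used as an alternative: the median of a column lay within 7.18 to 7.21 in the first set, 7.09 to 7.19 in the second and 7.28 to 7.29 in the last. The processed signal was centred on each array's 75th percentile. Between 48 and 446 spots per array carried an uneven or outlier mark and were dropped. Probes entered a fit when 0.5 or more of their spots exceeded background on each array of some group in that set and every group had 2 or more usable arrays. The files give accessions, of which 27071 of 41174 matched a symbol in RefSeq's table for GRCm38.p6 and were named with it. All groups in a set shared one linear model (limma 3.58.1, moderated 2-sided test) in R 4.3.3, and Benjamini-Hochberg adjustment ran over all probes in the fit. Figures used matplotlib 3.10.9 in Python 3.11.15.

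The members and lists were chosen with earlier results of these data known. Named genes were all members and, per list, comparison and direction, up to 2 called genes with the largest change, plus the 5 genes most like Bnip3l. Marker genes and some list genes given with them were chosen after their values were seen. The files hold no mean signal, so normexp (offset 50) used median signals. The steps were tested on simulated data: of probes changed by log2 1, 20.9% were recovered in the first set, 38.8% in the second and 71.6% in the last. Few probes were changed in the simulation (67 by log2 1), whereas 57.4% were called in Ediff over EryCP repeat. The adjustment was therefore stricter there, and 38.8% does not give the sensitivity of that comparison. The number of arrays limits precision. Slide was tested as a block and within slides. Labels give running sample numbers, so no pairing was used. 1 gene of the lists is not reported here by name.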

Additional observations from a re-analysis of the deposited data

Results flagged for a closer look

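Atg5 in CD34+ CD103- cells held 1 array apart from the others. Replicate 3 read 0.96 against 0.81 to 0.83 on the other 3 arrays, a gap past Dixon's 95% critical value. It was the only one of 30 probe and group pairs tested, and chance alone gives about 1 in 20.

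Ediff over EryCP repeat and CD34- CD103- Epo over CD34- CD103- differed by a limma contrast for 9 members. The comparisons also differ in cells, sort and software version, which cannot be told apart from a differing response to Epo. The difference was 0.84 for Bnip3l, -1.11 for Bnip3, 0.34 for Ulk1, 0.44 for Gabarapl1, 0.73 for Gabarapl2, 0.94 for Map1lc3b, -0.36 for Atg7, 0.43 for Atg5 and 0.94 for Foxo3. Of all probes, 43.2% differed. The call for Atg7 was lost with any of 9 of the 13 arrays left out (adjusted p of up to 0.0933), and those of Foxo3 and Ulk1 with 3 and 1.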

How the results depend on the processing

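No paired analysis was possible because the labels carry running sample numbers, which pair no samples by replicate number, and slide was used as the block instead. The cause of the changes in counts of called members was not tested. The share of all probes called changed with the setting too, and it is given in brackets after each count. CR Sca1lo over Sca1hi had 3 called members when slide was a block (18.7%), 0 with normexp (0.00592%) and 2 with quantile normalization (5.8%). It had 0 without a filter on dim probes (2.51%), 2 with a trended and robust fit (4.77%) and 2 in the deposited table (7.89%). With all 26 arrays in one fit it had 3 (12.4%), with median centring 0 (1.2%) and without slide 2 0 (1.64%). For EryCP over CR Sca1lo the count was 6 (21.4%), 0 (0.243%) and 5 (8.49%) under the first 3 settings. It was 0 with spike-in scaling (2.84%), 1 without a filter (3.55%) and 1 with 1 probe per gene (4.95%). In the deposited table it was 6 (11%), with all arrays 6 (14.5%), with median centring 0 (2.34%) and without slide 2 0 (3.27%). For EryCP over Sca1hi it was 4 with the block (21.7%), 0 with normexp (0.34%) and 0 with median centring (3.15%). For Ediff over EryCP repeat it was 0 with normexp (0.772%) and 5, all lower, with spike-in scaling (52.8%). For CD34- CD103- over CD34+ CD103- it was 1 with spike-in scaling (15.5%), and for CD34- CD103- Epo over CD34+ CD103- 5 with the trended fit (6.58%). For the difference of the Epo responses it was 1 with normexp (5.17%) and 3 with spike-in scaling (37.7%). Leaving out 1 array at a time gave 0 to 1, 0 to 1, 2 to 2, 6 to 9, 4 to 5, 0 to 0, 1 to 3 and 6 to 9 called members for CR Sca1lo over Sca1hi, EryCP over CR Sca1lo, EryCP over Sca1hi, Ediff, CD34-, Epo over CD34- CD103-, Epo over CD34+ CD103- and the difference of the responses. In that order, 1.59% to 2.81%, 2.89% to 4.39%, 3.48% to 5.56% and 40.6% to 66.3% of all probes were called. For the last 4 it was 9.47% to 13.5%, 1.24% to 2.82%, 2.49% to 5.2% and 37.2% to 50%. With slide as a block, differences of opposite sign were Gabarapl2 0.02 for CD34- CD103- Epo over CD34- CD103-, then Atg7 -0.05 for CD34- CD103- Epo over CD34+ CD103-. With normexp, differences of opposite sign were Atg5 0.08 and Foxo3 -0.59 for EryCP over CR Sca1lo, then Ulk1 0.07, Atg5 0, Sqstm1 0.07 and Foxo3 -0.43 for EryCP over Sca1hi, then Foxo3 -0.13 for CD34- CD103- over CD34+ CD103-, then Bnip3 -0.01 for CD34- CD103- Epo over CD34- CD103-, then Ulk1 -0.04 for the difference between the Epo responses. With quantile normalization, differences of opposite sign were Bnip3 -0.07 and Ulk1 -0.01 for CD34- CD103- Epo over CD34- CD103-. With spike-in scaling, differences of opposite sign were Bnip3l -0.13, Ulk1 -0.51, Gabarapl1 -0.26, Gabarapl2 -0.27, Map1lc3b -0.04 and Atg5 -0.42 for Ediff over EryCP repeat, then Gabarapl1 -0.13, Map1lc3b -0.11 and Foxo3 -0.2 for CD34- CD103- over CD34+ CD103-, then Bnip3 -0.2, Ulk1 -0.13, Atg7 -0.11, Atg5 -0.13 and Foxo3 -0.11 for CD34- CD103- Epo over CD34- CD103-, then Gabarapl1 -0.1, Gabarapl2 -0.25, Map1lc3b -0.37, Atg7 -0.41 and Foxo3 -0.31 for CD34- CD103- Epo over CD34+ CD103-, then Ulk1 -0.38, Gabarapl1 -0.29 and Atg5 -0.3 for the difference between the Epo responses. In the deposited table, differences of opposite sign were Atg5 0.03 for CR Sca1lo over Sca1hi, then Bnip3 -0.08 and Ulk1 -0.02 for CD34- CD103- Epo over CD34- CD103-. With median centring, differences of opposite sign were Bnip3 -0.01 for CD34- CD103- Epo over CD34- CD103-. With 1 array left out, ranges that crossed 0 were -0.17 to 0.04 for Atg5 in CR Sca1lo over Sca1hi, -0.02 to 0.12 for Map1lc3b and -0.44 to 0.89 for Atg7 in EryCP over Sca1hi, -0.05 to 0.24 for Gabarapl1 in EryCP over CR Sca1lo and -0.1 to 0.1 for Foxo3 in CD34- CD103- over CD34+ CD103-. For Epo over CD34- CD103- they were -0.08 to 0.05 for Bnip3l, 0 to 0.04 for Bnip3 and -0.08 to 0.03 for Sqstm1, and -0.01 to 0.06 for Atg7 over CD34+ CD103-. The settings without slide 2 and with median centring were added after seeing the data. Dim probes such as Foxo3 limit precision.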
